A study of Mus musculus with 12 samples.

Results

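Myosin is the motor of the heart muscle cell. The 9 genes described here are 3 heavy chains (Myh6, Myh7 and Myh7b), 4 light chains (Myl2, Myl3, Myl4 and Myl7), the cardiac myosin light chain kinase Mylk3 and the cardiac myosin-binding protein C Mybpc3. They were chosen by name and matched on gene symbol. All 9 were among the 18050 genes of the deposited expression table, and all 9 passed the filter on low counts in every test.

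RNA was sequenced from left ventricles of wild-type mice 7 d after a sham operation or after MI, read here as myocardial infarction, the death of heart muscle through loss of its blood supply. There were 6 sham and 6 MI libraries. Their processing notes differ between replicates 1 and 2, here set A, and replicates 3 to 6, here set B. Every comparison was therefore also made within each set, at 2 against 2 and 4 against 4 libraries. The labels used here give no sex, age or strain and do not say that libraries came from separate animals, so the spread behind the p-values is that of libraries and may be technical.

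Each myosin molecule pairs heavy chains, which split ATP and pull on actin, with essential and regulatory light chains that stiffen and tune the lever arm. In the mouse ventricle the fast alpha heavy chain of Myh6 replaces the slower beta heavy chain of Myh7 after birth, and a return towards Myh7 is a widely used sign of a stressed heart. Myl2 and Myl3 encode the ventricular regulatory and essential light chains, and Myl7 and Myl4 encode their atrial partners. Mylk3 phosphorylates the regulatory light chain, and Mybpc3 holds myosin heads back along the thick filament.

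The libraries held between 9140353 and 18602226 expected counts, with more in every MI library than in any sham library of its set. Levels are given in CPM, read counts scaled to a common library total, after TMM scaling, which corrects library size for differences in RNA composition. The sets also stood apart in other ways. The biological coefficient of variation among libraries of a group was 0.112 in sham libraries of set A, 0.192 in MI libraries of set A, 0.0293 in sham libraries of set B and 0.0208 in MI libraries of set B. Because libraries of a group in set B were nearly as close as repeat libraries, tests below were also run with set B counted once per group. The Y-linked gene Ddx3y lay at 0 to 0.0741 CPM in set A and at 111 to 140 CPM in set B, so sex and set cannot be told apart. Within set B, the beta-globin genes Hbb-bs and Hbb-bt made up 99.88% to 99.99% of beta-globin counts in sham libraries and 0.0596% to 0.194% in MI libraries, so the haplotype at that locus and the operation cannot be told apart there. The 7 lung markers summed to 173 to 177 CPM in MI libraries of set B, against at most 2.84 CPM in any other library, with Sftpc at 114 CPM on average. The only lung marker tested over both sets, Ager, was called higher. Their part in the results below was not tested.

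Most of the heart's myosin genes were lower after MI. A gene is called here only where edgeR's quasi-likelihood test passed a Benjamini-Hochberg adjusted p of 0.05 in the same direction both over the 12 libraries and with set B summed and counted once per group. By that rule 7 of the 9 members fell, none rose, and Myh7 and Myl4 were not called. The count that rose was also 0 at an unadjusted p of 0.05 in edgeR's test of the 12 libraries, and 0 by DESeq2 and limma where passing with set B counted once was required as well. Of all 13592 genes tested both ways, 29.8% were called lower and 28.1% higher. The median log2 fold change of the 9 members over the 12 libraries was -2.15, beside 0.01 over all genes. In bulk ventricle, fewer cardiac muscle cells and less RNA per muscle cell cannot be told apart. The 9 ventricular myocyte markers, all called lower, summed to 85542 to 85831 CPM in sham and 5574 to 8642 CPM in MI libraries of set A. In set B they summed to 79061 to 80822 CPM in sham and 25016 to 25681 CPM in MI libraries. None of these markers was at 0 in any group. Among them myoglobin (Mb) fell by 2.83 and cardiac troponin I (Tnni3) fell by 2.84 on the log2 scale over the 12 libraries. The count of 7 changed with the libraries of set A: it was 4 without sham replicate 1, 4 without sham replicate 2, 2 without MI replicate 1 and 5 without MI replicate 2. With an adjusted p of 0.01 it was 4. Leaving out a library of set A, here and below, also removed a column from the test with set B counted once. Leaving out a library of set B did not, so the calls lost cannot be compared between the sets.

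**Figure D1:**
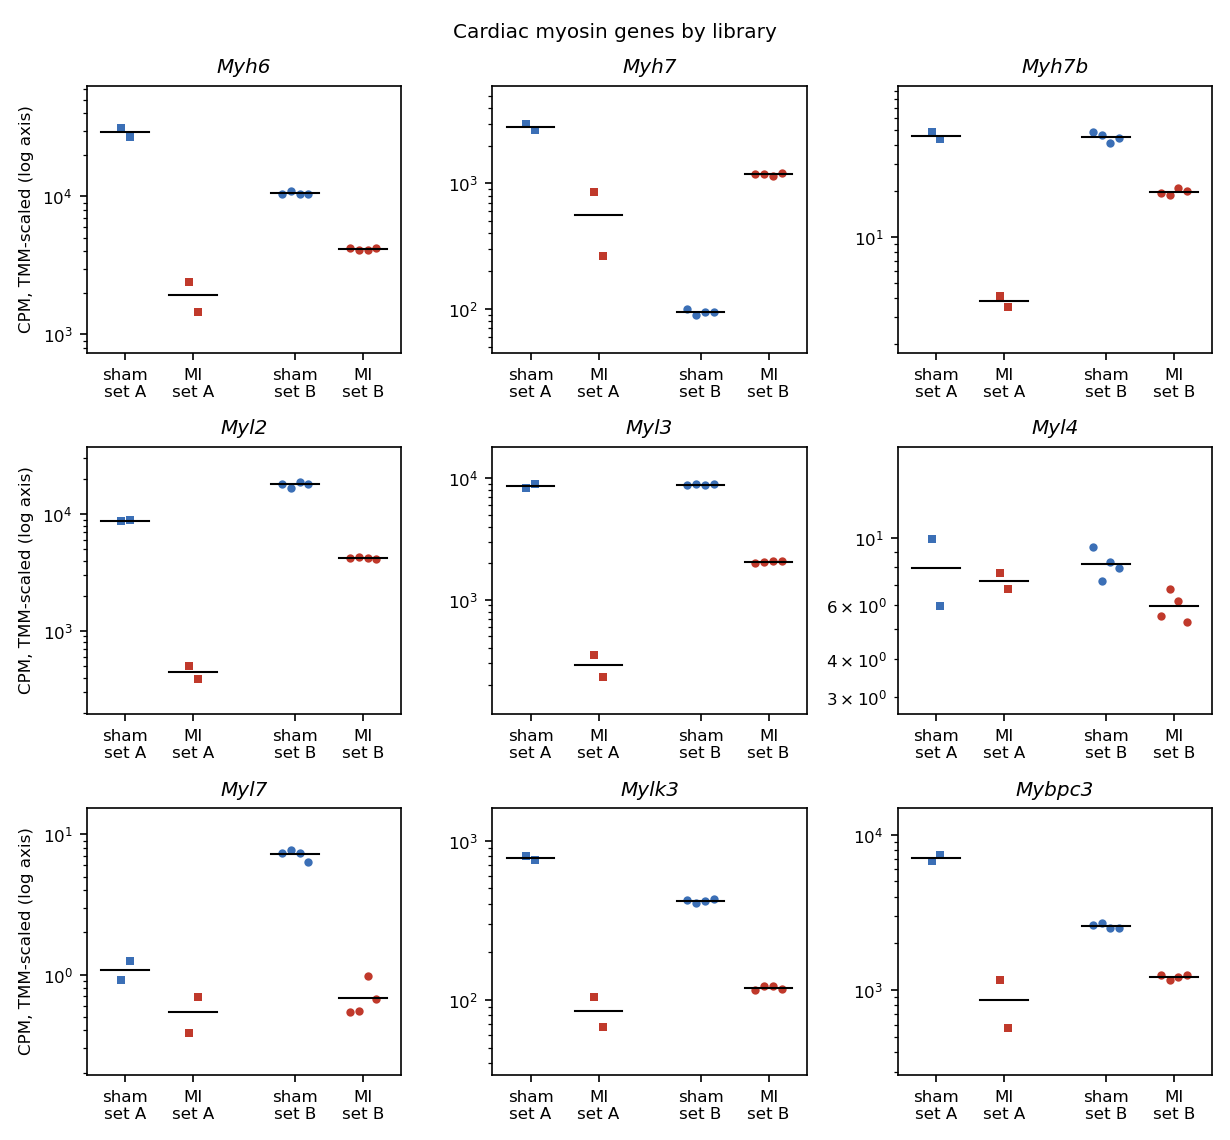
Level of each myosin gene in CPM, on log axes that differ between panels, in sham (blue) and MI (red) libraries of set A (squares) and set B (circles). Horizontal bars are group means. Myh7 fell in the left pair of groups and rose in the right pair, whereas Myh6, Myh7b, Myl2, Myl3, Mylk3 and Mybpc3 were lower in every MI library than in any sham library.

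Myh6 encodes the alpha heavy chain, the main myosin motor of the adult mouse ventricle (RefSeq GRCm38.p6, chr14:54941921-54968017, minus strand). It stood at 31608 and 27002 CPM in sham libraries of set A and at 2398 and 1464 CPM in MI libraries of set A. In set B the sham libraries held 10357, 10950.5, 10501 and 10478 CPM and the MI libraries 4199, 4102, 4112 and 4255 CPM. Every MI library lay below every sham library, as was the case for 42.6% of genes in either direction. The group mean was 15.2-fold lower after MI in set A and 2.54-fold lower in set B. Over the 12 libraries Myh6 fell by 2.15 on the log2 scale (SE 0.42), with adjusted p = 0.000527, and 0.0174 when set B was counted once. This call was lost when any of the 4 libraries of set A was left out. Within set B the same test gave an adjusted p of 8.12e-28. Libraries of a group lay very close together there, with coefficients of variation of 0.0293 and 0.0208. That spread may be technical, so this p does not offset the lost calls.

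Myh7 encodes the beta heavy chain and lies next to Myh6 on the same strand (chr14:54970684-54994626), 2666 bases away. It behaved unlike Myh6 and unlike itself between the sets. Sham libraries of set A held 2992 and 2665 CPM, and MI libraries of set A held 862 and 265 CPM. Sham libraries of set B held only 99.0, 88.9, 94.3 and 94.1 CPM, and MI libraries of set B held 1189, 1185, 1152 and 1209 CPM. Thus both MI libraries were below both sham libraries in set A, and all 4 MI libraries were above all 4 sham libraries in set B. Groups without overlap in either direction were common, at 85.8% of genes in set A and 75.8% in set B. Such opposite, non-overlapping pairs of groups were found for 5.54% of genes tested over the 12 libraries.

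The MI mean of Myh7 was 5.02-fold lower than the sham mean in set A (log2 fold change -2.35, SE 0.53, adjusted p = 0.00945). In set B it was 12.6-fold higher (log2 fold change 3.70, SE 0.03, adjusted p = 1.87e-34). The difference between these effects was 5.98 on the log2 scale (SE 0.45), with adjusted p = 1.16e-07 over the 12 libraries and 0.0248 with set B counted once. Both sets together gave no call. The fitted log2 difference was 2.21 (SE 1.10) over the 12 libraries, with adjusted p = 0.0865, and -0.91 with set B counted once, with adjusted p = 0.635. Over the 12 libraries alone Myh7 did pass as higher by DESeq2 (2.24, adjusted p = 0.00648). It also passed there by edgeR with scaling by library size alone (2.60, adjusted p = 0.0455), without MI replicate 1 (2.95, adjusted p = 0.0161) and without MI replicate 2 (2.98, adjusted p = 0.00394). The sham libraries differed more between the sets than the operation changed Myh7 within either: sham libraries of set A were 30.1-fold above sham libraries of set B. MI libraries of set A were 2.10-fold below MI libraries of set B.

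The windows around the annotated starts of Myh6 and Myh7 are shown because these neighbouring genes moved together in set A and apart in set B. Each runs 5′ to 3′ on the minus strand, from 250 bases before to 50 bases after a start in RefSeq GRCm38.p6, at chr14:54966558-54966857 for Myh6 and chr14:54994577-54994876 for Myh7, where the table holds a second window. Capitals mark matches on either strand, none of which overlap, to CATTCC (the core bound by TEAD factors), AGGTNA (the core hexamer of thyroid hormone response elements, N being any base) and TATAAA.
Myh6: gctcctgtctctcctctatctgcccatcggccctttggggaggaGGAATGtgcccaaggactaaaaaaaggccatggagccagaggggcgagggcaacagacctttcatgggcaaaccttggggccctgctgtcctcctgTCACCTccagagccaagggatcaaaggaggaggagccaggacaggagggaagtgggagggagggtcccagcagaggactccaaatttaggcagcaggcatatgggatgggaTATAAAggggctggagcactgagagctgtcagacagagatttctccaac
Myh7: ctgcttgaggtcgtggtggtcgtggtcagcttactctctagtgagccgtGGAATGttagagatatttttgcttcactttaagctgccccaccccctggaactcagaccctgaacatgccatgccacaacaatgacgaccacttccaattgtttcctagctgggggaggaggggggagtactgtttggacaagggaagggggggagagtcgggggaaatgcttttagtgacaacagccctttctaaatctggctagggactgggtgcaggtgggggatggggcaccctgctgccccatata

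CATTCC was found 206 bases before the start in the Myh6 window and 201 bases before it in the Myh7 window. AGGTNA was found 110 bases before the start of Myh6 and not in the Myh7 window. TATAAA began 1 base after the annotated start of Myh6 and was not in the Myh7 window. All distances are from annotated starts, which may not be where transcription begins in these libraries. Of 32851 promoter windows in the table, 14.7% held CATTCC, 42.3% held AGGTNA and 13.6% held TATAAA. The E box, searched as CANNTG, occurred in 72.3% of windows, Myh6 and Myh7 included, and the CArG box, in 1.63% of windows, occurred in neither. A match describes the letters of the window and not a site in use.

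Myh6 and Myh7 are close copies, so part of their reads cannot be assigned by sequence. Of the 50-base windows along their transcripts, 22.6% of those of Myh6 and 22.2% of those of Myh7 occur in the other gene. For 100-base windows the shares were 11.4% and 11.2%. The exons of Myh7 also overlap antisense genes, Mhrt among them, over 13.3% of their length, and strandedness is not stated. The sum of both genes does not depend on how reads are split between them. Their sum stood at 32134 ± 3488 CPM in sham and 2495 ± 1083 CPM in MI libraries of set A (SD, n = 2 per group), a 12.9-fold lower mean. In set B the sum stood at 10666 ± 256 CPM after sham operation and 5351 ± 92.4 CPM after MI (SD, n = 4 per group), a 1.99-fold lower mean.

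The share of Myh7 in the counts of Myh6 plus Myh7 was higher in every MI library than in any sham library, in both sets. It was 8.65% (exact 95% binomial interval 8.57% to 8.73%) and 8.98% (8.89% to 9.07%) in sham libraries of set A. It was 26.4% (26.1% to 26.8%) and 15.3% (15.0% to 15.7%) in MI libraries of set A. The intervals cover counting error only, and the 2 MI libraries differed from each other well beyond them.

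In set B the share was 0.947%, 0.805%, 0.890% and 0.890% in sham libraries, with exact limits between 0.748% and 1.01%. In MI libraries it was 22.1%, 22.4%, 21.9% and 22.1%, with exact limits between 21.6% and 22.7%. All 4 MI shares of set B thus lay between the 2 MI shares of set A, whereas the mean sham shares were far apart, at 8.82% in set A and 0.883% in set B. MI exceeded sham by 12.1 percentage points in set A and by 21.2 percentage points in set B.

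Averaged over the sets the difference was 16.7 percentage points, with p = 0.00476 in a two-sided exact permutation test of labels within sets, the smallest p its 420 assignments allow (0.00714 after adjustment over the 3 shares tested). The smallest possible values were also reached within set A (exact p = 0.333) and within set B (exact p = 0.0286). With set B of each group averaged to 1 value, 3 against 3, the difference was 15.1 percentage points and the exact permutation p was 0.1, the smallest that design allows (0.15 adjusted). Shares from FPKM, which corrects for gene length, gave 16.6 percentage points.

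**Figure D2:**
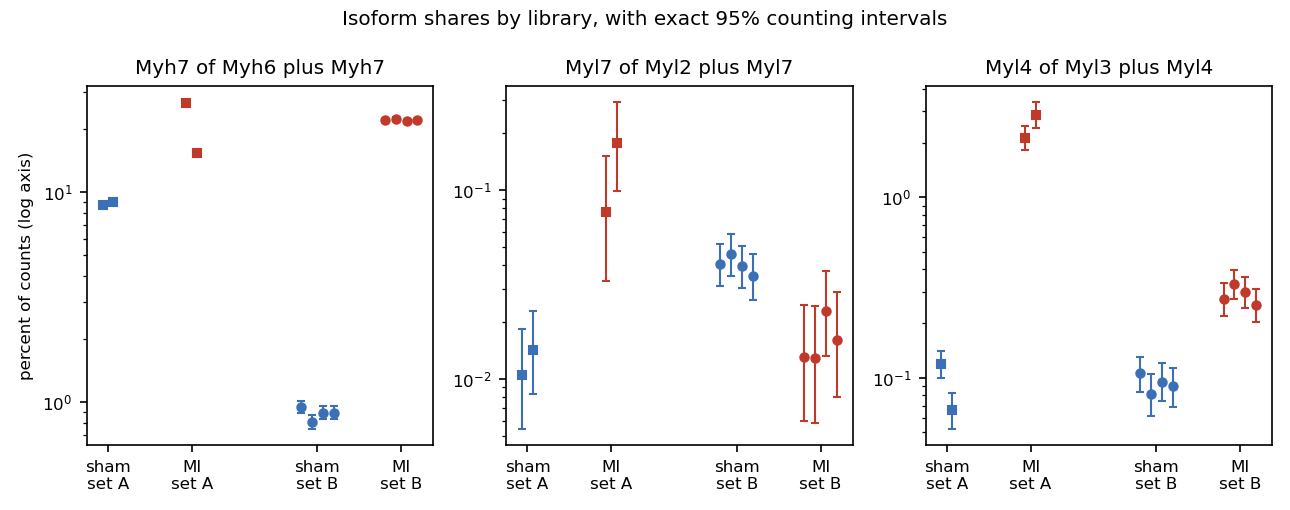
Share of the minor isoform in each library, as percent of the counts of both genes on log axes that differ between panels, with exact 95% binomial intervals. Sham libraries are blue, MI libraries red, set A squares and set B circles. The Myh7 share lay at 15.3% to 26.4% in all 6 MI libraries and at 0.805% to 8.98% in the 6 sham libraries, and the Myl7 share moved in opposite directions in the sets.

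Myh7b encodes a slow-type heavy chain of low abundance in the heart (chr2:155611243-155634307, plus strand). Sham libraries held 48.3 and 43.8 CPM in set A and 48.6, 46.3, 41.3 and 44.3 CPM in set B, so this gene, unlike Myh6 and Myh7, had nearly the same sham level in both sets. After MI it stood at 4.13 and 3.51 CPM in set A and at 19.5, 18.8, 21.1 and 20.0 CPM in set B. The means were 12.1-fold and 2.28-fold lower. Over the 12 libraries Myh7b fell by 1.90 on the log2 scale (SE 0.34, adjusted p = 0.000272), with adjusted p = 0.00673 when set B was counted once. The 2 effects differed by 2.40 on the log2 scale (adjusted p = 6.46e-09 over the 12 libraries and 0.0140 counted once).

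Each of the 3 heavy chain genes carries a microRNA in an intron on its own strand. Their mature sequences, 5′ to 3′ from RefSeq GRCm38.p6, are shown with the seed (bases 2 to 8) in capitals. They are shown because Myh7 rose in set B, where Myh6 and Myh7b fell. In set A all 3 host genes fell. The microRNAs themselves were not analysed here.
mmu-miR-208a-3p (in Myh6, chr14:54949072-54949093): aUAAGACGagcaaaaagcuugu
mmu-miR-208b-3p (in Myh7, chr14:54975710-54975731): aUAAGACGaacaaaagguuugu
mmu-miR-499-5p (in Myh7b, chr2:155622893-155622913): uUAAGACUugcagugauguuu
The first pair share their seed and differ at 3 bases in all, and the seed of miR-499-5p differs from theirs at 1 base.

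The ventricular light chains had the largest falls among the abundant members. Myl2 encodes the ventricular regulatory light chain (chr5:122092724-122113473, plus strand). It held 8677 and 8864 CPM in sham and 502 and 391 CPM in MI libraries of set A. In set B it held 18227, 16800.1, 18794 and 18280.1 CPM in sham and 4188, 4317, 4236 and 4158 CPM in MI libraries. The MI means were 19.6-fold and 4.27-fold below sham. No MI library reached a sham library of either set, and the sham level of set B was 2.06-fold that of set A. Over the 12 libraries Myl2 fell by 2.80 (SE 0.36) on the log2 scale, with adjusted p = 1.87e-05, and 0.00556 with set B counted once.

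Myl3 encodes the ventricular essential light chain (chr9:110763678-110769802, plus strand). Its sham libraries held 8306 and 9012 CPM in set A and 8786, 8871, 8789 and 8911 CPM in set B, nearly the same level in both sets. After MI it held 351 and 230.3 CPM in set A and 2007, 2042, 2078 and 2083 CPM in set B. The MI means were 29.8-fold and 4.31-fold below sham, so Myl3 was the member with the largest fall in set A. Over the 12 libraries it fell by 2.97 (SE 0.45) on the log2 scale, with adjusted p = 6.78e-05, and 0.00661 with set B counted once. The calls of Myl2 and Myl3 were lost without MI replicate 1, where the log2 fold changes over the remaining libraries were -2.54 and -2.64.

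The atrial light chains were scarce in these ventricles. Myl4, the atrial and embryonic essential light chain (chr11:104546017-104587215, plus strand), held 9.91 and 5.97 CPM in sham and 7.65 and 6.77 CPM in MI libraries of set A. In set B it held 9.29, 7.19, 8.33 and 7.98 CPM in sham and 5.53, 6.79, 6.19 and 5.28 CPM in MI libraries. The groups overlapped in set A and did not in set B. Myl4 was not called: its log2 fold change over the 12 libraries was -0.35 (SE 0.14, adjusted p = 0.0377), but -0.27 with set B counted once (adjusted p = 0.404). Scaling by library size alone gave 0.06, the opposite sign, under which the median of all genes moved to 0.42.

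The share of Myl4 in Myl3 plus Myl4 counts was higher in every MI library than in any sham library. It was 0.119% and 0.0662% in sham and 2.14% and 2.86% in MI libraries of set A. In set B it was 0.0810% to 0.106% in sham and 0.253% to 0.331% in MI libraries. The mean difference over the sets was 1.30 percentage points, again the smallest exact permutation p, 0.00476 (0.00714 adjusted), and 1.67 percentage points with p = 0.1 in the exact test of 3 against 3. The gene length implied by count and FPKM was 1365 to 1392 bases for Myl4 in MI libraries of set A, 1032 to 1160 bases in their sham libraries and 826 to 881 bases in set B. From FPKM the shares in MI libraries of set A were accordingly 1.37% and 1.80%, still above every sham library, and the mean difference over the sets was 0.853 percentage points.

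Myl7, the atrial regulatory light chain (chr11:5896637-5898782, minus strand), rested on few counts. Sham libraries of set A held 12 and 17 counts and MI libraries of set A held 8 and 15. Sham libraries of set B held 63, 62, 62 and 53 counts, or 6.40 to 7.71 CPM, and MI libraries of set B held 9, 9, 16 and 11 counts, or 0.545 to 0.973 CPM. The MI mean in CPM was 2.02-fold below sham in set A (adjusted p = 0.117) and 10.6-fold below in set B (adjusted p = 4.30e-15). Sham libraries of set B were 6.65-fold above sham libraries of set A. The log2 fold change over the 12 libraries was -2.71 (SE 0.37, adjusted p = 2.88e-05, and 0.0417 counted once). The call was lost without sham replicate 1, sham replicate 2 or MI replicate 1.

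The share of Myl7 in Myl2 plus Myl7 counts went opposite ways. In set A it was 0.0105% and 0.0142% in sham and 0.0766% and 0.177% in MI libraries. In set B it was 0.0350% to 0.0459% in sham and 0.0128% to 0.0230% in MI libraries. The mean difference over the sets was 0.0453 percentage points (exact permutation p = 0.333), with 0.114 in set A and -0.0240 in set B. The 9 atrial myocyte markers summed to 1944 to 2603 CPM in sham and 3937 to 7285 CPM in MI libraries of set A, and to 337 to 373 CPM in sham and 5066 to 5210 CPM in MI libraries of set B. Nppa, the atrial natriuretic peptide gene, made up most of these sums except in sham libraries of set B, where it averaged 166 of 359 CPM. It is also induced in stressed ventricle. Other atrial markers were scarce. Bmp10 was at 0 in sham libraries of set A and in MI libraries of set B, and at most 0.120 CPM elsewhere. Sln averaged 0.304 and 0.0694 CPM in sham and MI libraries of set A and 1.23 and 0.456 CPM in set B. Mybphl averaged 0.720 and 0.118 CPM in set A and 0.932 and 0.0912 CPM in set B, in the same order. Of the 6 atrial markers tested, 1 was called higher (Dkk3) and 3 lower, and the part of atrial tissue in the light chain values was not tested.

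The kinase and the regulator of the thick filament fell as well. Mylk3 (chr8:85324928-85386340, minus strand) held 801 and 757 CPM in sham and 103 and 67.3 CPM in MI libraries of set A. In set B it held 421, 406, 419 and 427 CPM in sham and 116, 121, 122 and 117 CPM in MI libraries. It was 9.12-fold and 3.51-fold lower after MI, with no overlap of the groups over the 12 libraries. Over the 12 libraries it fell by 2.26 (SE 0.22) on the log2 scale, with adjusted p = 1.71e-06, and 0.00239 counted once. The length of Mylk3 implied by count and FPKM was 3115 to 3137 bases in set A and 2692 to 2751 bases in set B. Its levels may therefore not compare directly between the sets. Leaving out any 1 of the 12 libraries did not end the calls of Mylk3 or Myh7b.

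Mybpc3 (chr2:91118114-91136516, plus strand) held 6767 and 7410.3 CPM in sham and 1168 and 569.9 CPM in MI libraries of set A. In set B it held 2613, 2719.8, 2521 and 2499 CPM in sham and 1259, 1160.5, 1221 and 1244 CPM in MI libraries. The means were 8.16-fold and 2.12-fold lower after MI. Its log2 fold change over the 12 libraries was -1.71 (SE 0.32, adjusted p = 0.000426, and 0.0149 counted once). This call was lost without any 1 of the 4 libraries of set A.

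In set A alone 7 members were called lower, Myh7 among them, beside 32.9% of all genes, and none higher, beside 34.1%. In set B alone 8 were called lower, beside 39.5% of all genes, and Myh7 was called higher, beside 42.2%. The effect of MI differed between the sets for 5 members, Myh6, Myh7, Myh7b, Myl2 and Myl3, beside 10.6% of all genes. For Myh6, Myh7b, Myl2 and Myl3 the fall was larger in set A, by 2.58, 2.40, 2.20 and 2.79 on the log2 scale. For Mylk3, Mybpc3 and Myl7 the difference passed over the 12 libraries, as for 55.0% of all genes, and missed the threshold counted once (adjusted p = 0.0748, 0.0939 and 0.0833). The count of 5 was 0 without sham replicate 1 or sham replicate 2, 8 without MI replicate 1 and 7 without MI replicate 2, and 0 with an adjusted p of 0.01.

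**Figure D3:**
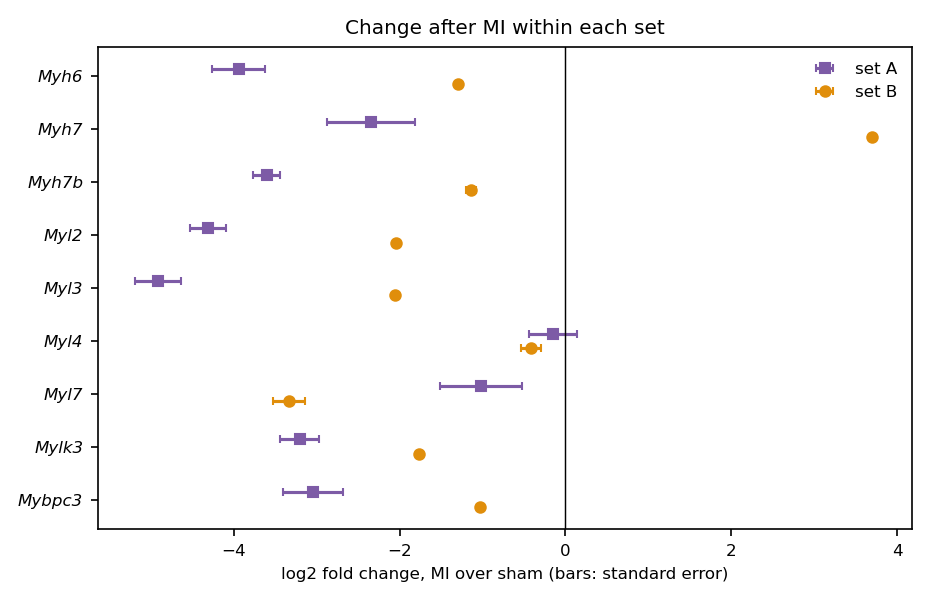
Log2 fold change of MI over sham for each member, fitted within set A (squares, 2 against 2 libraries) and within set B (circles, 4 against 4), with standard errors as bars. Myh7 stands at -2.35 and 3.70, and Myl4 and Myl7 are the members whose value lies further to the left in set B than in set A.

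Levels can be compared between genes in FPKM, which is per gene length. In all 4 combinations of set and operation the order began with Myl2, Myl3, Myh6 and Mybpc3. The mean FPKM of Myl2 was 11887 in sham and 806 in MI libraries of set A, and 25659 in sham and 7870.2 in MI libraries of set B. In MI libraries of set A the ranges of Myl3 and Myh6 overlapped, at means of 381 and 364 FPKM, as did those of Myh6 and Mybpc3. Myh7 came next, above Mylk3, in 3 of the 4 groups, with means of 393, 105 and 226 FPKM. In sham libraries of set B it stood below Mylk3 at 13.7 FPKM, close above Myl7 at 11.7 FPKM. Myl4, Myl7 and Myh7b held the last places at no more than 11.7 FPKM in any group. Myh7b, whose range overlapped that of Myl4 in sham libraries of set A, was last in the MI libraries of that set.

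Setting the members against the thin filament, which shares their cells, shows which changed more or less than the mean of 5 of its genes. The reference was the mean log2 CPM of Actc1, Tnnt2, Tnni3, Tnnc1 and Tpm1 (cardiac actin, the cardiac troponins and tropomyosin), which itself fell by 3.43 in set A and fell by 1.28 in set B. These 5 genes were chosen with the values known, so the differences are a description without a test. The 5 did not move alike. In sets A and B Actc1 had log2 fold changes of -3.03 and -0.78, and Tnnt2 of -2.65 and -1.39. Tnni3 had -4.62 and -1.99, beside -4.31 and -2.04 for Myl2 and -4.92 and -2.06 for Myl3. The differences below thus depend on the genes in the reference. Relative to the mean of the 5 genes Myl2 was lower after MI, with log2 differences of -0.88 in set A and -0.81 in set B. Myl3 had differences of -1.499 and -0.82. Myh7 was higher by 0.87 and by 4.94. Myh6 differed by -0.53 and -0.06, Mybpc3 by 0.31 and 0.20 and Mylk3 by 0.21 and -0.53, all without overlap of the groups. Such separation was common: in CPM it held for 85.8% of genes in set A and 75.8% in set B. For the relative values its share over all genes was not computed. Myh7b differed by -0.17 and 0.10, and its groups overlapped in both sets. Thus the absolute fall of Myh7 in set A was smaller than that of the thin filament, while Myh6 plus Myh7 together differed from it by -0.33 in set A, where the groups overlapped, and by 0.29 in set B, where they did not. Myl4 was relatively higher by 3.33 and 0.82, and Myl7 differed by 2.37 and -2.15.

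**Figure D4:**
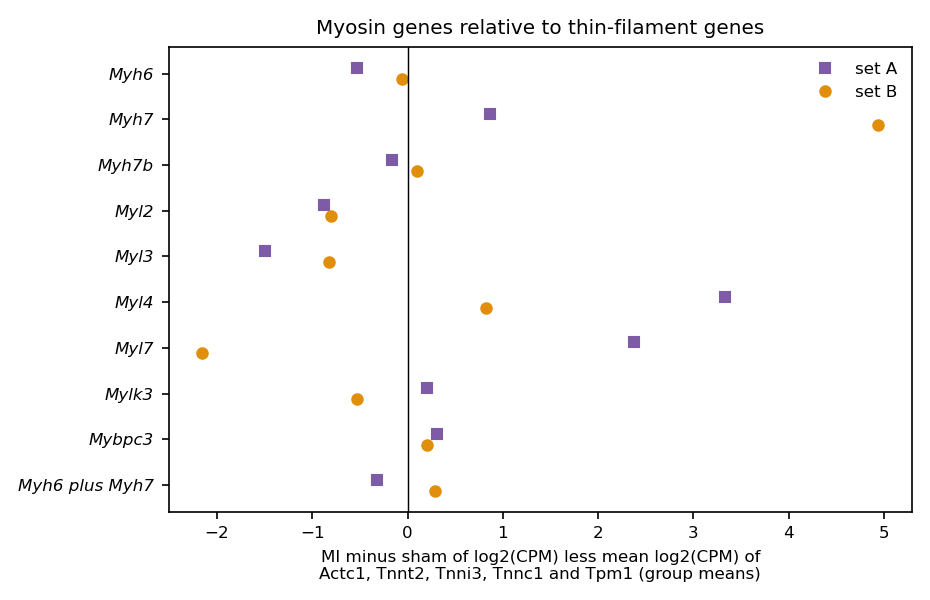
Difference of MI from sham group means in the log2 CPM of each member less the mean log2 CPM of 5 thin-filament genes, for set A (squares) and set B (circles). Myh7 lies to the right of 0 in both sets, at 0.87 and 4.94, and Myl2 and Myl3 to the left of it in both.

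Among 29 other sarcomere genes tested, 21 were called lower, 1 higher and 7 in neither direction, with a median log2 fold change of -1.53 over the 12 libraries, -3.03 in set A and -0.80 in set B. Over all genes the medians of the sets were 0.07 and 0.03. Actc1, the cardiac actin, fell by 1.52 and Tnnt2, cardiac troponin T, fell by 1.83. Tcap, which ties titin into the Z disc, fell by 3.11. The exception was Tpm2, the beta tropomyosin, which rose by 1.70 from 30.3 to 136 CPM in set A and from 38.0 to 106 CPM in set B. For 17 of the 29 genes the effect differed between the sets. Of 28 genes with a fold change in both sets, 23 were lower in both and 3, Acta1, Tnni1 and Flnc, were lower in set A and higher in set B, as Myh7 was. These 3 are named because of their values. Acta1, the skeletal actin of the fetal heart, moved by -3.39 (SE 0.61) in set A and by 1.37 (SE 0.02) in set B on the log2 scale. Its mean sham levels were 2007 and 532 CPM. Tnni1, slow skeletal troponin I, also a fetal partner, had values of -2.21 and 3.34, on at most 29 counts in any library.

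**Figure D5:**
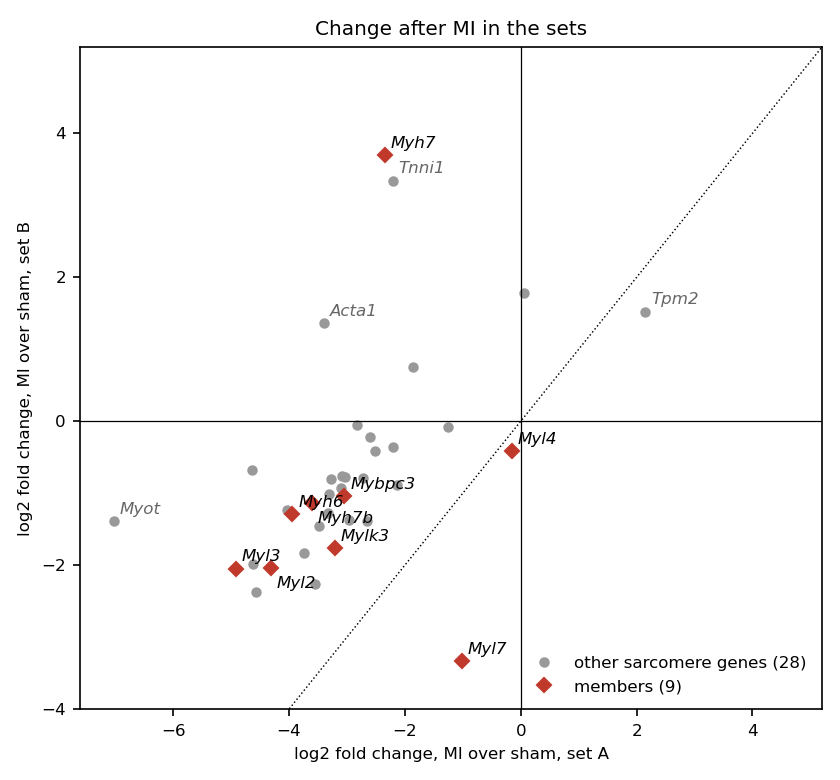
Log2 fold change of MI over sham in set B against that in set A, for the 9 members (diamonds) and 28 other sarcomere genes (grey circles), with equal change dotted. Of the other sarcomere genes 27 lie above the dotted line, and Myh7, Tnni1 and Acta1 lie at the upper left, with opposite signs.

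Myosins of other cell types moved in both directions. Of 11 skeletal, smooth muscle and nonmuscle myosin genes tested, 6 were called higher, 3 lower and 2 in neither direction, with a median log2 fold change of 0.41. Myh9, a nonmuscle heavy chain, rose by 1.61, from 214 to 714 CPM in set A and from 115 to 334 CPM in set B. Myl6, the light chain of smooth muscle and nonmuscle myosin, rose by 1.09. Myl12a, a nonmuscle regulatory light chain, fell by 0.65, and its exons overlap those of Myl12b on the same strand over 13.8% of their length. The 6 fibroblast markers summed to 2000.5 to 2257 CPM in sham and 38936 to 50146 CPM in MI libraries of set A, and to 2361 to 2479 CPM in sham and 16027 to 16147 CPM in MI libraries of set B. Of these 6, 5 were called higher and none lower, and Col1a1, a chain of type I collagen, rose by 5.37 on the log2 scale. The 5 macrophage markers, 4 of them called higher and none lower, summed to 414 to 433 CPM and 2944 to 4387 CPM, and to 793 to 845 CPM and 3002 to 3114 CPM, in the same order. The 8 smooth muscle markers, 6 of them called higher and none lower, summed to 832 to 893 CPM and 1439 to 1679 CPM, and to 381 to 406 CPM and 933 to 999.9 CPM. None of the markers of these 3 lists was at 0 in all libraries of a group. Their part in the changes of the myosin genes was not tested.

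The 9 skeletal muscle markers were low, and of 5 tested 2 were called higher and none lower. They summed to 103 to 218 CPM in sham and 48.6 to 85.5 CPM in MI libraries of set A, and to 101 to 108 CPM in sham and 190 to 194 CPM in MI libraries of set B. Myl1, a fast skeletal essential light chain, made up most of them, at 157 and 56.8 CPM in sham and MI libraries of set A and 99.9 and 174 CPM in set B, and was not called. Pvalb, the called skeletal marker with the largest change, rose by 3.61 on the log2 scale, from 0.300 to 5.30 CPM in set A and from 0.515 to 5.28 CPM in set B. Myh4, a fast skeletal heavy chain, was at 0 in both MI libraries of set A.

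Genes that act on the myosin light chains moved in both directions. Of 11 light chain kinase and phosphatase genes tested, 4 were called lower, 3 higher and 4 in neither direction, with a median of -0.25. Mylk4, a further kinase of the myosin light chain kinase family, fell by 4.05, from 313 to 6.94 CPM in set A and from 171 to 16.4 CPM in set B, beside the fall by 2.26 of Mylk3. Ppp1cb, the catalytic subunit of myosin phosphatase, fell by 0.90, and Ppp1r12a, its targeting subunit, rose by 0.46. Camk2d, the main cardiac calmodulin-dependent kinase, fell by 0.57.

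All 13 genes for myosin folding and turnover were called, 11 lower and 2 higher, with a median of -1.53. Hspb7 and Cryab, small heat shock proteins of muscle, fell by 1.63 and fell by 1.29 in turn, and Trim54, a muscle ring finger protein, fell by 2.504. Hsp90aa1, the inducible HSP90 chaperone, rose by 0.69. The exons of Cryab and Trim54 overlap antisense genes over 17.0% and 26.6% of their length.

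Of 22 transcription regulators linked to the heart myosin genes, 16 were called lower, 3 higher and 3 in neither direction, with a median of -0.61. Nkx2-5, a cardiac homeobox factor, fell by 2.05, and Mef2a, a muscle enhancer factor, fell by 0.59. Tbx20, a cardiac T-box factor, rose by 0.48. Eya4, a transcriptional coactivator, rose by 3.54 from 0.447 to 5.73 CPM in set A and from 0.632 to 7.18 CPM in set B. Thra, the thyroid hormone receptor gene whose product acts on Myh6 and Myh7, fell by 0.59. It lay at 180 CPM in both sham libraries and at 83.6 to 102 CPM in MI libraries of set A, and at 77.2 to 84.7 CPM in sham and 59.2 to 63.8 CPM in MI libraries of set B. Thrb, the gene of the other thyroid hormone receptor, fell by 1.15. It lay at 16.3 to 19.3 CPM in sham and 8.26 to 13.3 CPM in MI libraries of set A, and at 22.5 to 26.4 CPM in sham and 8.58 to 10.1 CPM in MI libraries of set B. Sham levels of set A were thus above those of set B for Thra and below them for Thrb.

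The genes whose log2 CPM followed Myh6 most closely over the 12 libraries, among 9908 genes with a mean of at least 10 CPM, were Mtus2 (Pearson r = 0.998), Coq8a (r = 0.998) and Usp13 (r = 0.997). Those closest to Myh7 were Aplnr (r = 0.971), Map4k4 (r = 0.960) and F830016B08Rik (r = 0.958). The 12 libraries form 4 groups of set and operation, so these values describe mostly the order of 4 group means and carry no p. Aplnr, the apelin receptor, like Myh7 stood lower after MI in set A (122 and 56.7 CPM) and higher in set B (43.0 and 88.2 CPM).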

How the data were processed

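Per the labels, total RNA was extracted from left ventricles with Magzol and mRNA was enriched with oligo(dT). Per the submitters' processing notes the build was GRCm38, with Bowtie2, RSEM and DESeq2 named for replicates 3 to 6 and no tool for replicates 1 and 2. The authors deposited expected counts (unscaled estimates), FPKM and TPM for 12 libraries and 18050 genes, and a separate FPKM table for replicates 1 and 2. For 425 genes the larger table is blank in replicates 1 and 2 (set A; replicates 3 to 6 are set B). TPM was not tested, since counts carry the depth.

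After rounding, counts went into edgeR 4.0.16 in R 4.3.3 (quasi-likelihood F test, TMM, filterByExpr, set as covariate), with Benjamini-Hochberg adjustment over all genes tested. On simulated data only the recovery of added effects was recorded, and false calls were not counted. Standard errors of log2 fold changes were derived from the F statistics. Differences between sets were tested as an interaction. Alternatives were DESeq2 1.42.0, limma 3.58.1 on log2(FPKM + 1) or log2(FPKM + 0.1), other scaling, filters and thresholds, and leaving out each library. Same-numbered sham and MI libraries deviated from their group means with correlations of -0.0479 to 0.0640. In set A, with 2 libraries per group, both values are equal by construction. These correlations cannot show whether the numbers pair libraries, and the main tests did not pair them.

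The members, the 12 other gene lists (151 entries), the shares, the test that counts replicates 3 to 6 once and the comparison with thin-filament genes were chosen with earlier results of these data known. Named genes are the members and, from each list, the 2 with the highest mean FPKM, the called gene with the largest change and the most abundant called gene against the majority, plus the 3 genes closest to Myh6 and to Myh7. Those named otherwise were chosen after their values were seen. Sequences and positions are RefSeq GRCm38.p6, which matched 17995 gene IDs, and all 9 members have a promoter there. Exon overlaps use GENCODE annotation.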

Additional observations from a re-analysis of the deposited data

Results flagged for a closer look

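Of 48 groups of 4 or 6 libraries, 4 held a library far from the others, where chance flags about 1 in 20. MI replicate 2 was lowest of the 6 MI libraries for Myh7 (265 CPM), Mylk3 (67.3 CPM) and Mybpc3 (569.9 CPM), and sham replicate 1 was lowest of the 6 sham libraries for Myl3 (8306 CPM). These groups pool both sets.

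The MI effect differed between the sets by the test of the difference itself for 5 members, beside 10.6% of all genes. That count was 0 without sham replicate 1, without sham replicate 2 and with an adjusted p of 0.01. In log2 fold change, set B minus set A, the difference was 5.98 for Myh7, 2.79 for Myl3, 2.58 for Myh6, 2.40 for Myh7b and 2.20 for Myl2. The share of Myl7 in Myl2 plus Myl7 moved by 0.114 percentage points in set A and by -0.0240 in set B, with every library following its set, and this difference was not tested.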

How the results depend on the processing

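Of the alternatives run, 4 turned the sign of a single gene's fold change: Myh7 was -0.042 without the set covariate, -0.91 with set B counted once alone and -2.35 in set A alone, and Myl4 was 0.0611 under library size alone. The Myl7 share was -0.0240 in set B alone. Members called lower numbered 4 with an adjusted p of 0.01 and 2 to 7 with a library left out, and 1 member was higher in set B alone against 0 to 0 with a library left out. Members whose effect differed between sets numbered 0 with an adjusted p of 0.01, 8 by the 12-library test alone and 0 to 8 with a library left out. Genes called lower numbered 4055, and 2478 under library size alone, 2545 and 2562 by limma with pseudocounts of 1 and 0.1, 2218 without the set covariate and 2789 to 4073 with a library left out. Genes called higher numbered 3824, and 6269, 6174, 6225 and 2305 in the same order, 2184 with an adjusted p of 0.01, 5828 in set B alone and 2240 to 3915 with a library left out. Library size alone moved the median of all genes to 0.42 and limma with a pseudocount of 1 to 0.30, against 0.01. Genes whose effect differed between sets numbered 1435, and 837 and 687 by limma, 1 with an adjusted p of 0.01, 7503 by the 12-library test alone and 1 to 2964 with a library left out. The Myh7 share difference was 12.03 percentage points from the separate FPKM table, 12.1 in set A alone, 15.1 at 3 against 3 and 13.9 to 19.4 with a library left out. The Myl4 share difference was 1.38, 2.40, 1.67 and 1.12 to 1.48, and that of Myl7 0.0201 to 0.0704 with a library left out. Those 3 settings allow no p under the threshold. With the replicate block 5 members were called lower, since Myh6 (-2.16) and Myl7 (-2.71) lost their calls, and Myh7 stood at 2.21. Myl7 also lost its call under library size alone (-2.31), limma (-1.70 and -2.16) and without the set covariate (-3.00), as did Myl2 without the covariate (-2.33). Among the settings with a library left out, only those without a library of set A removed a column from the test with set B counted once. Beyond the named cases the cause was not tested. Myl7 is limited by its 8 to 63 counts per library.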

Other observations

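The skeletal heavy chains of development, left out of the tests over both sets for low counts, were detected mainly in MI libraries of set B. Myh8, the perinatal heavy chain, had 37.8 to 65.7 counts there (2.32 to 3.98 CPM), 0 in sham libraries of set B and in MI libraries of set A, and at most 1 count in sham libraries of set A. Myh3, the embryonic heavy chain, had 21.3 to 37.0 counts (1.31 to 2.24 CPM) in MI libraries of set B and at most 2.11 counts in any other library. Both were named after their values were seen, so these values carry no test. In set B 3 adult skeletal muscle genes also stood higher after MI, with means of 0.135 and 1.35 CPM for Myh1, 0.143 and 0.883 CPM for Myh2 and 0.664 and 3.42 CPM for Tnnt3 in sham and MI libraries. Their means were higher after MI in set A as well. There they were 0.117 and 0.434 CPM for Myh1, 0.185 and 0.252 CPM for Myh2 and 0.340 and 1.84 CPM for Tnnt3. The 4 MI libraries of set B held 173 to 177 CPM of lung markers, against at most 2.84 CPM elsewhere, and the part of other tissue in the Myh3 and Myh8 values was not tested. Myh3 and Myh8 stood far below Myh7, which held 1152 to 1209 CPM in MI libraries of set B.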
